A study of Mus musculus with 2 samples.

Results

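The epidermal differentiation complex is a run of genes on mouse chromosome 3, many of which encode proteins of the cornified cell layer. Members were the protein-coding genes of GENCODE release M21 on chromosome 3 with names starting Sprr, Lce or S100a, together with Lor, Ivl, Flg, Flg2, Hrnr, Rptn, Tchh and Crnn. The rule gave 58 members of 21853 protein-coding genes, and of 999 on chromosome 3. They were 14 S100a genes, 15 Sprr genes, 21 Lce genes, Lor and Ivl, and the 6 fused-type genes Crnn, Flg2, Flg, Hrnr, Rptn and Tchh. Sprr2j-ps was among them because GENCODE lists it as protein coding. The members spanned chr3:90511034-93564643 (mm10), and 200 kb on either side was examined as well. Members were taken by gene name, gene type and chromosome alone, though the rule was chosen with earlier results of these data known.

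The data were CTCF ChIP-seq peaks from stomach tissue of B6NCrl mice at postnatal day 0, with 1 group and 2 biological replicates. ChIP-seq sequences the DNA fragments recovered with an antibody, here against CTCF. In the labels both replicates share 1 donor and 1 tissue sample, so their spread may be technical, and no contrast between conditions was possible. The tissue was whole stomach, without sorting of cell types, and the peak lists hold no expression values, so the labelled tissue was not checked against marker genes. A weak peak in such tissue can come from few cells with the site bound or from weak binding in many, and these cannot be told apart here.

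CTCF is a zinc finger protein that binds a long, directional DNA motif and halts the extrusion of chromatin loops by cohesin, so that loop anchors tend to carry motifs that point towards each other. The cornified envelope is the protein shell that replaces the membrane of keratinocytes at the end of their differentiation. Its genes in the complex are known for being switched on together in epidermis and in other squamous epithelia, which does not hold for every S100a member. In the mouse the upper stomach, or forestomach, is lined by such a keratinized squamous epithelium.

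The sequences under the peaks that border or lie within the subfamilies are shown first, because the position and direction of the motif carry most of what follows. Each is read 5′ to 3′ on the strand of the motif, from the reference assembly GRCm38.p6, with the 19-base CTCF match in capitals. The consensus of the matrix was NNNCCACNAGGGGGCNCNN, where N marks a position at which no base held a majority. Both strands were searched within 50 bp of each summit.
S100a3 intron, chr3:90585830-90585868, plus strand: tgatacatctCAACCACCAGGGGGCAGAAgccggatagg
S100a6 intron, chr3:90615573-90615611, minus strand: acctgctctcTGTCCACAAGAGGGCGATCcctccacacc
upstream of S100a7a, chr3:90653054-90653092, minus strand: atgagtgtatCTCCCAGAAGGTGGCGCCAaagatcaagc
beyond S100a9, chr3:90710220-90710258, minus strand: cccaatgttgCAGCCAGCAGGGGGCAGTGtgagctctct
between Lelp1 and Sprr2a1, outer, chr3:92150812-92150850, plus strand: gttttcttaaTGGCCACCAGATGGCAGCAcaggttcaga
between Lelp1 and Sprr2a1, inner, chr3:92153500-92153538, plus strand: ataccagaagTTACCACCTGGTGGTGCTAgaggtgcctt
downstream of Sprr2h, chr3:92394481-92394519, plus strand: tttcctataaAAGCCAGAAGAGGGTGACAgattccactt
downstream of Sprr1a, chr3:92481432-92481470, minus strand: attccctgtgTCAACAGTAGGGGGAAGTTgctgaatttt
beyond Sprr4, chr3:92510978-92511016, minus strand: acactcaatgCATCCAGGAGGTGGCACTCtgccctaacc
downstream of Ivl, chr3:92565598-92565636, plus strand: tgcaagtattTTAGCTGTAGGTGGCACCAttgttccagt
before Lce3a, chr3:92920546-92920584, plus strand: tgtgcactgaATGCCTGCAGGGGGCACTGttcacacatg
after Lce3f, chr3:92998865-92998903, minus strand: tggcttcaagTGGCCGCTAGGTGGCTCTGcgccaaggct
before Crnn, chr3:93130612-93130650, plus strand: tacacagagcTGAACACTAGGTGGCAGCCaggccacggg
upstream of Hrnr, chr3:93314564-93314602, plus strand: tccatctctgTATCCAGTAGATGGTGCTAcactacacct
after Rptn, chr3:93407169-93407207, minus strand: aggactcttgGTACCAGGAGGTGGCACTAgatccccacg
after Tchh, chr3:93494178-93494216, minus strand: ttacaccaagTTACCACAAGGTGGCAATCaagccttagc
before S100a10, chr3:93547242-93547280, plus strand: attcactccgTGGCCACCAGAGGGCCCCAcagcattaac

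A further 3 windows of 41 bases are shown because the summit had no match that reached the threshold. They are centred on the summit, are given on the plus strand and have no capitals.
upstream of S100a14, chr3:90525597-90525637, plus strand: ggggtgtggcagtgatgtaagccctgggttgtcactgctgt
Lor coding exon, chr3:92080605-92080645, plus strand: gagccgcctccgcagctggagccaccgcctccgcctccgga
between Lce1h and Lce1i, chr3:92771744-92771784, plus strand: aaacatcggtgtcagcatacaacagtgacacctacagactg

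An optimal peak is one in the optimal list deposited after IDR, which compares the rank order of peaks between lists to find reproducible ones. Which lists were compared is not given, so an optimal peak need not be reproducible between the 2 replicates. Of the 98 optimal peaks of the span and its flanks, 91 were also in the conservative list, the other one made after IDR. For 2 of the 98, the list of 1 replicate held no counterpart within 100 bp. Of the 58 members, 28 had an optimal summit within 10 kb of a transcription start site (48.3%, exact 95% interval 34.95 to 61.8), against 69.7% of all coding genes and 71.3% of those on chromosome 3. Within 1 kb the count was 8 members, of which 7 were S100a genes and 1 was Lce1h, against 42.3% of all coding genes. The median distance from a member to the nearest summit was 11456.5 bp, and it was 2207.5 bp over all coding genes. The intervals cover counting error only, and neighbouring members share peaks, so members are not independent of one another.

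The subfamilies differed in these counts. A summit lay within 10 kb of 13 of 14 S100a genes, of 2 of 2 for Lor and Ivl, of 9 of 21 Lce genes, of 2 of 6 fused-type genes and of 2 of 15 Sprr genes. The median distance to the nearest summit was 1073 bp for S100a genes, 13296.5 bp for fused-type genes, 15198 bp for Lce genes and 38078 bp for Sprr genes. Counts by replicate were close to these: 27 members had a peak within 10 kb in the top list of replicate 1 and 28 in that of replicate 2, a top list being the 74283 peaks of highest signal. The median of the strongest signal within 10 kb was 201 over the 28 members and 195 over all coding genes with a peak. The subfamilies lay on either side of that: 405 for S100a, 166 for Sprr, 116 for fused-type genes, 83.7 for Lce and 83.6 for Lor and Ivl. Signal is the authors' own value per peak and ranks the peaks of 1 list. Values from the replicate lists stand side by side only as a description, since those lists have no common scale.

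**Figure D1:**
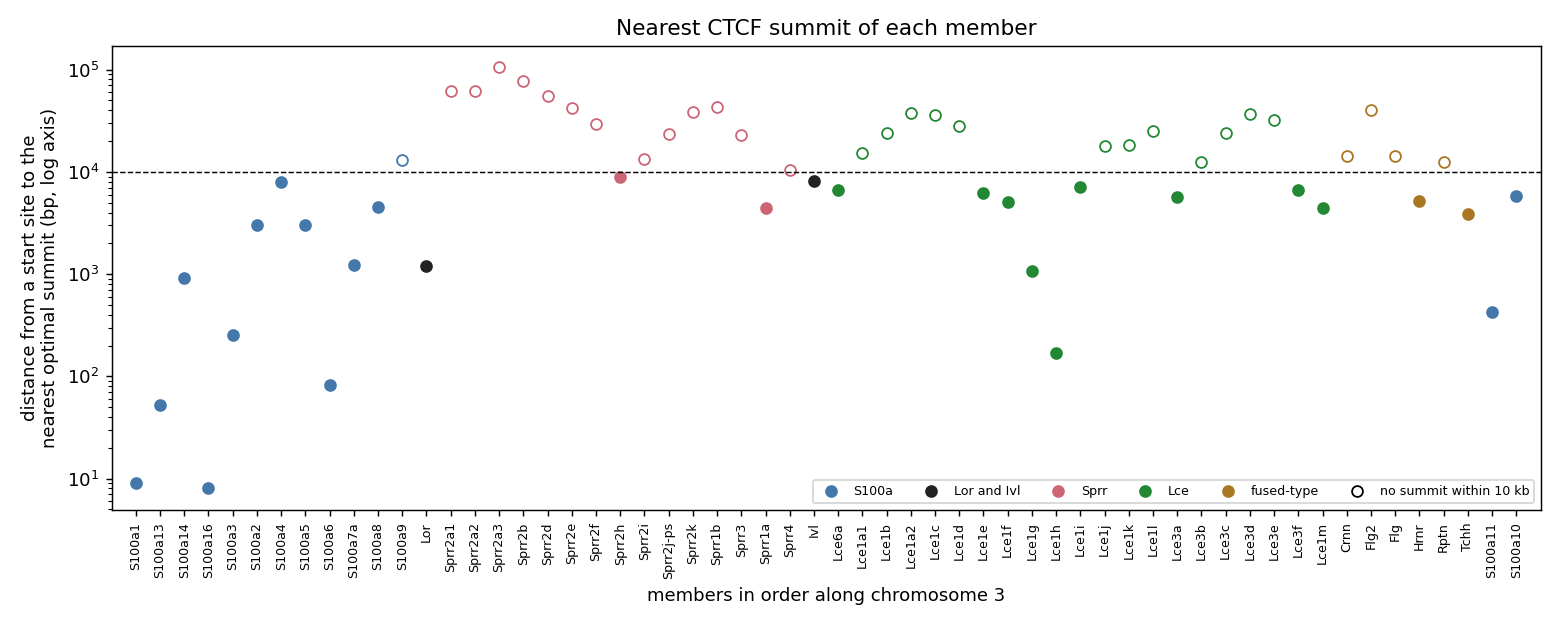
Distance from each member to the nearest optimal summit (vertical axis, bp, log scale), with the 58 members in order along chromosome 3 and coloured by subfamily. Filled points lie within 10 kb (dashed line) and open points beyond it; the Sprr genes hold 13 open points of 15, and the S100a genes 1 of 14.

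The plot of distances by member shows that position along the chromosome and subfamily go together. Within the Sprr genes the distance rose to 105938 bp at Sprr2a3 and fell again towards Sprr2h, and within the Lce genes it rose and fell over several shorter stretches. The members nearest to the 10 kb limit were Sprr2h at 8804 bp on the inside and Sprr4 at 10502 bp on the outside.

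Across the span and its flanks there were 98 optimal peaks, 80 of them within the span. That gave 26.2 peaks per Mb in the span, against 23.0 on chromosome 3 and 30.3 on the autosomes. The span therefore did not stand low as a whole, but its blocks ranged from 5.06 peaks per Mb between S100a9 and Lor to 113 per Mb between S100a11 and S100a10. The S100a1 to S100a9 block held 18 peaks in 184.7 kb, or 97.5 per Mb. The Sprr genes held 2 peaks in 284.7 kb, or 7.03 per Mb, and the Lce genes 15 peaks in 399.0 kb, or 37.6 per Mb. From Lor to the end of Tchh, the block that holds all cornified envelope genes, the density was 34.3 per Mb.

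**Figure D2:**
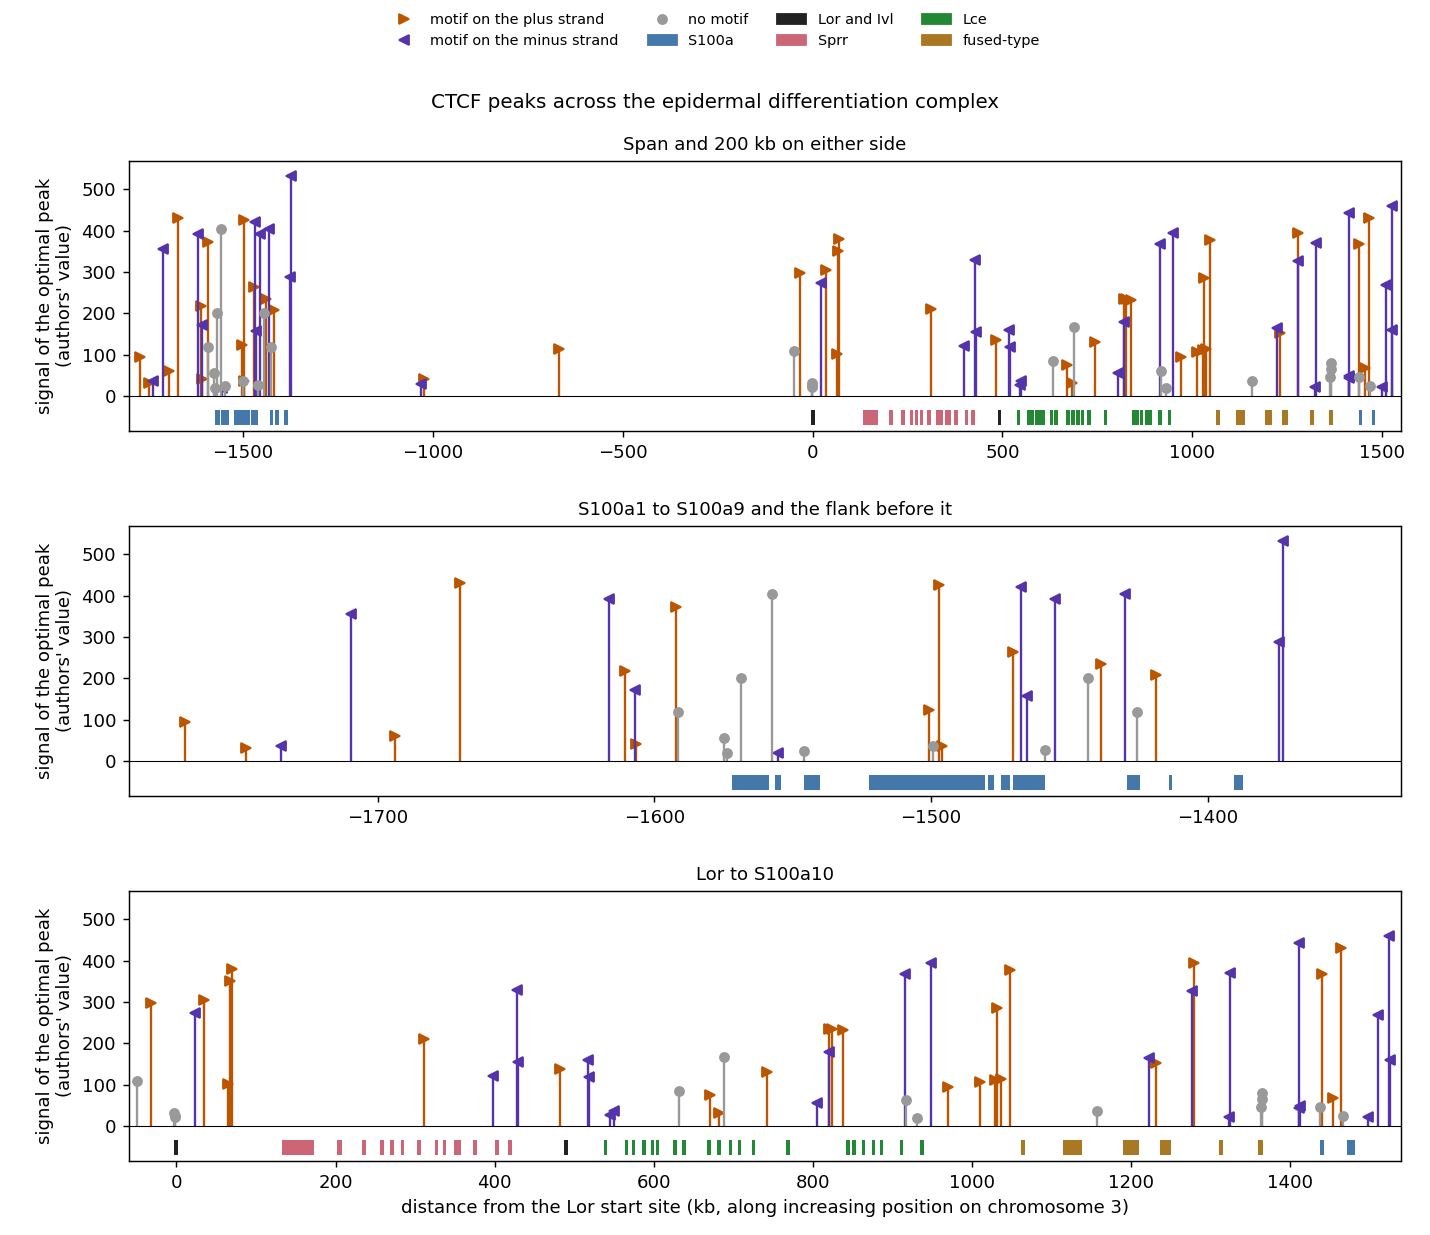
Signal of each optimal peak (authors' value) against distance from the Lor start site in kb, over the whole region and over both gene-rich ends. Triangles point along the strand of the motif, circles have no motif, and coloured boxes are members; tall peaks crowd the S100a genes, while the Sprr boxes hold 2 peaks and the interval from S100a9 to Lor holds 7.

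The map of peaks also shows where the strong ones lay. The highest signal in the span was 532, at chr3:90710074-90710452, which is 14539 bp beyond the start of S100a9 and above 99.6% of all optimal peaks. In the replicate lists, which are not scaled to each other, it measured 302 and 234. It was the last strong peak before the gene-poor interval that leads to Lor. Of the 10 strongest peaks of the span, 5 lay between S100a1 and S100a9, at S100a3 (427), S100a6 (420 and 391), S100a14 (405) and S100a7a (405). The other 4 lay between Tchh and S100a11 (443), before S100a10 (431), after Lce1m (395) and before Rptn (394).

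The S100a genes encode small calcium-binding proteins of the EF-hand type. S100a3 and S100a2 shared their strongest peak, with a signal of 427, measured as 243 and 186 in replicates 1 and 2. It lay 1101 bp from a start of S100a3 and 4396 bp from S100a2, in an S100a3 intron. S100a5 and S100a6 likewise shared a peak of 420, measured as 219 and 201. S100a6 also had a summit 83 bp from a start, with a signal of 264, and that summit was the single one within 10 kb of S100a4, at 7888 bp. In these pairs 1 peak thus served as the strongest of neighbouring genes.

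S100a7a, a psoriasin relative, had a peak of 405 at 1229 bp, measured as 232 and 172. S100a8, a subunit of the antimicrobial protein calprotectin, had a peak of 209 at 4558 bp, measured as 123 and 87.2. S100a9, which encodes the partner subunit, was the S100a gene without a summit within 10 kb, at 13031 bp. That nearest summit had a signal of 289, and the summit of 532 followed it, at 14539 bp from S100a9.

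S100a10 and S100a11 lie apart from the others, at the far end of the complex. S100a10, the partner of annexin A2, had a peak of 431 at 7814 bp, measured as 238 and 193, and its nearest summit was a weaker peak at 5754 bp. S100a11 had a peak of 368 at 2295 bp in its own intron, measured as 190 and 179, and its nearest summit at 421 bp had a signal of 46.2. The 5 peaks of this block lay in 44.2 kb, which gave the highest density of any block.

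Several of the summits closest to S100a starts had no motif match. S100a16 had a summit 8 bp from a start with a signal of 23.6, measured as 12.7 in each replicate, and no motif match. S100a1 and S100a13, which start close together on opposite strands, shared a summit at 9 bp and 52 bp with a signal of 201, also without a match. The peak of 405 at 1239 bp from S100a14 was the strongest of the region without a match, and its best window scored 9.41 against the threshold of 10.62. Of the 8 peaks within 1 kb of a member start, 4 had a motif, and their median signal was 35.5.

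Lor encodes loricrin, the main protein of the cornified envelope, and Ivl encodes involucrin, an early scaffold of it. Lor had 3 peaks within 10 kb, all in its coding exon and all weak, with signals of 30.8, 24.5 and 21.9. None had a motif match, and 1 of them, the peak of 30.8, was in the top list of both replicates, at 18.1 and 13.6. Strong peaks with motifs stood farther out, at 32255 bp with a signal of 299 and at 23558 bp with a signal of 272. Ivl had a peak of 136 at 8109 bp with a plus-strand motif, measured as 75.6 and 60.2. Lor and Ivl thus counted alike at 10 kb through peaks that differed in signal and in motif.

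The Sprr genes encode small proline-rich proteins that are cross-linked into the envelope. Sprr2h had a peak of 211 at 8804 bp, measured as 107 and 102. Sprr1a had a peak of 121 at 4431 bp, measured as 72.7 and 52.7. These were the 2 peaks within the Sprr genes, and each had a motif and was found in both replicates. Sprr4 had its nearest summit at 10502 bp, and that peak, beyond the last Sprr gene, was stronger at 330, measured as 194 and 137.

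Most Sprr starts lay in 2 long stretches without a summit. The first ran 241.0 kb, from the peak of 379 near Lelp1 to the peak of 211 near Sprr2h, and held the starts of Sprr2a1, Sprr2a2, Sprr2a3, Sprr2b, Sprr2d, Sprr2e, Sprr2f and Sprr2h. Of all gaps between neighbouring autosomal summits, 1.81% were as long, and the median gap was 12122 bp. The second ran 87.0 kb and held Sprr2i, Sprr2j-ps, Sprr2k, Sprr1b and Sprr3, and 7.60% of autosomal gaps were as long. In neither stretch did the top list of replicate 1 or of replicate 2 hold a peak. The relaxed list of both replicates together, which also keeps peaks that IDR did not, held none within 10 kb of Sprr2a1, Sprr2a2, Sprr2a3, Sprr2b, Sprr2e or Sprr3.

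The Sprr2a genes are near-identical copies, and repeated sequence differed between the 2 stretches. Sprr2a1 and Sprr2a2 also share a first stretch of their gene models. Of the 32-base words within 10 kb of Sprr2a2, 95.2% occur more than once in the genome, against 15.2% on the autosomes. The value was 87.9% for Sprr2a1, 75.7% for Sprr2a3 and 20.3% for Sprr2b. Over the 241.0 kb stretch it was 46.7%, and over the 87.0 kb stretch it was 11.8%, below the autosomal value. The part of repeated sequence in the absence of peaks over the first stretch was not tested.

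Motif matches were counted over whole blocks, wherever a score reached the threshold. The Sprr genes held 13 matches, or 45.7 per Mb, against 97.8 per Mb on chromosome 3 and 184 per Mb from S100a1 to S100a9. Of the 13 matches 2 carried a peak (15.4%, exact 95% interval 1.92 to 45.4), and on chromosome 3 the share was 16.2%. From S100a1 to S100a9 it was 11 of 34 (32.4%, 17.4 to 50.5). At the stricter score that 0.1% of random windows reach, the Sprr genes held 0 matches and the whole span 33, of which 26 carried a peak (78.8%) against 72.4% on chromosome 3. The Sprr genes thus held fewer matches per Mb than the chromosome. With 13 matches, the interval of their share with a peak holds both the 16.2% of the chromosome and the 32.4% of S100a1 to S100a9. It therefore cannot decide which of these the Sprr share resembles.

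The motifs on either side of the Sprr genes pointed towards each other. On the Lor side 5 motifs in a row lay on the plus strand, with signals from 100 to 379, the last being the peak near Sprr2h. On the Ivl side 3 in a row lay on the minus strand, with signals of 121, 330 and 155, the first being the peak near Sprr1a. All 15 Sprr starts lay between the plus-strand peak of 379 and the minus-strand peak of 330, which are 357 kb apart. The motifs of these peaks differ in score: the outer peak near Lelp1 reached 23.39, the inner one 14.82, the Sprr2h peak 12.88, the Sprr1a peak 12.52 and the peak beyond Sprr4 16.55. The last motif of the minus-strand run, at the peak of 155 outside the Sprr genes, scored 11.58, lower than both peaks among the genes. ChIP-seq does not measure loops, and no contact data were used.

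**Figure D3:**
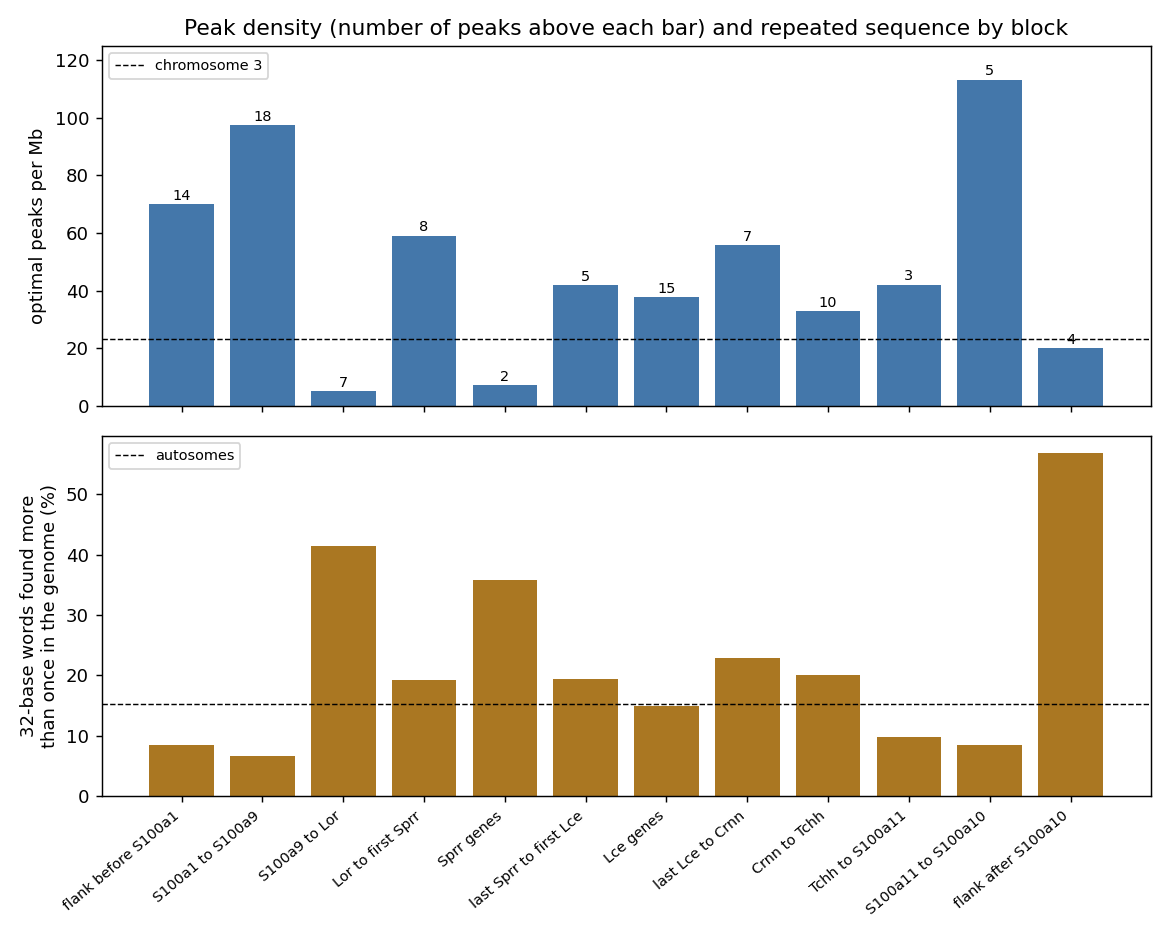
Optimal peaks per Mb (upper panel, number of peaks above each bar) and the percentage of 32-base words found more than once in the genome (lower panel) for the consecutive blocks of the region; dashed lines give chromosome 3 and the autosomes. The Sprr genes have 2 peaks with 35.8% repeated words, and the interval from S100a9 to Lor has 7 peaks with 41.5%.

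The plot of density by block sets the Sprr genes beside the interval from S100a9 to Lor. That interval held the 3 longest stretches of the span without a summit, of 617 kb, 357 kb and 343 kb, and no member starts within them. The longest ran from a peak of 113 to one of 108, and 0.346% of autosomal gaps were as long. The flank after S100a10 had the most repeated words, 56.8%, with 4 peaks at 20 per Mb, and the interval from S100a9 to Lor had 41.5% at 5.06 per Mb. The part of repeated sequence in these densities was not tested.

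The Lce genes encode late cornified envelope proteins. Lce3f had the strongest peak of the subfamily, 368 at 6657 bp, measured as 195 and 173. Lce3a had a peak of 232 at 5662 bp, measured as 128 and 102. These 2 peaks bound the Lce3 genes, with a plus-strand motif before Lce3a and a minus-strand motif after Lce3f, and the 78.3 kb between them held no summit. Lce3b, Lce3c, Lce3d and Lce3e lay inside, without a peak within 10 kb. The nearest motifs outside the Lce genes as a whole did not face each other. Both the peak of 119 before Lce6a and the peak of 395 after Lce1m had minus-strand motifs. From Lor to Tchh, of 35 neighbouring pairs of motifs 8 pointed towards each other, 8 away and 19 the same way.

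Among the Lce1 genes the peaks were weaker. Lce1h and Lce1i shared a peak of 167, measured as 94.8 and 72.7, whose best window scored 10.27, under the threshold. Lce1e and Lce1f shared a peak of 83.7, also at 10.27, and Lce1g had a peak of 74.2 at 1063 bp with a motif. Lce1h had the nearest summit of the subfamily, at 171 bp, with a signal of 32.1, in the top list of replicate 2 but not of replicate 1. The lowest values were at Lce6a, with a peak of 25.9, and at Lce1m, with one of 19.5 that was in neither top list. Between the Lce1 and Lce3 genes 3 stronger peaks lay beyond 10 kb from any member, at 18458 to 23045 bp from Lce3a, with signals of 234, 179 and 235. A peak of 129 lay in a Kprp intron, 18115 bp from Lce1k. Strong peaks among the Lce genes were thus not limited to those that border the Lce3 genes.

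For the 12 Lce members without a peak within 10 kb, the nearest summit lay between 12411 bp, at Lce3b, and 37206 bp, at Lce1a2. In order along the chromosome the first of them was Lce1a1, at 15198 bp, and the last Lce3e, at 31822 bp. A stretch of 82.2 kb without a summit held the starts of Lce1a1, Lce1b, Lce1a2, Lce1c, Lce1d and Lce1e. Repeated words made up 15.98% of it, close to the autosomal 15.2%, and 22.1% of the Lce3 stretch. Both stretches lacked a peak in either top list, as did the Sprr stretches.

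The fused-type genes encode long proteins that join an S100-like calcium-binding end to repeats, filaggrin (Flg) being the one that bundles keratin. Hrnr, hornerin, had a peak of 151 at 5162 bp with a plus-strand motif, measured as 78.5 and 73.0. Tchh, trichohyalin of the hair follicle and filiform papillae, had 3 peaks, all in its coding exon and without a motif, with signals of 44.5, 80.0 and 64.6. The peak of 80.0 measured 48.5 in replicate 1 and had no counterpart within 100 bp in the list of replicate 2. The neighbouring peak of 64.6 measured 33.02 and 36.05, and that of 44.5 measured 29.9 and 13.1.

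Crnn, Flg2, Flg and Rptn had no summit within 10 kb. The distance was 14148 bp for Crnn, 14144 bp for Flg, 12449 bp for Rptn and 40132 bp for Flg2. Crnn, cornulin, had 1 peak within 10 kb in the top list of replicate 2 alone; in the relaxed list of both replicates together a peak 8476 bp away had a signal of 20.6. Crnn and Flg2 lay in a stretch of 109.7 kb without an optimal summit, and 5.62% of autosomal gaps were as long. Around Flg and Hrnr 39.9% and 35.4% of words were repeated, and the part of repeated sequence in the absence of a peak near Flg was not tested.

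Strong peaks nonetheless framed the fused-type genes. Before Crnn 6 motifs in a row lay on the plus strand, with signals from 95.2 to 379, the last of them 14148 bp from Crnn. From Rptn to beyond Tchh 5 in a row lay on the minus strand, with signals from 22.4 to 443. The peak of 379 and the peak of 443 are 364 kb apart and enclose all 6 fused-type starts. Between them the strands alternated at Flg, Hrnr and Rptn. Over the whole region 39 motifs lay on the plus strand and 35 on the minus strand, and of 73 neighbouring pairs 17 pointed towards each other, 16 away and 40 the same way.

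Peaks in coding exons differed from the rest of the region. There were 9, of which 2 had a motif and 3 were in both top lists, with a median signal of 30.8. In members there were 7, namely 3 in Lor, 3 in Tchh and 1 in S100a14, and the S100a14 peak of 18.1 was the one with a motif. Among the 126 other coding-exon peaks of chromosome 3, 55.6% had a motif, 74.6% were in both lists and the median signal was 68.2. Around the 7 member peaks GC content ran from 55.8% to 72.1%, with a median over all 98 peaks of 46.2%, and its part in these peaks was not tested. By contrast 52 of the 64 intergenic peaks had a motif and 62 were in both lists.

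Of the 98 peaks 74 had a motif (75.5%, exact 95% interval 65.8 to 83.6), against 67.5% of optimal peaks off chromosome 1. The median signal was 133, and 76.6 over all optimal peaks. Among the 65 peaks at or above the genome-wide median, 86.2% had a motif (75.3 to 93.5), against 82.5% of such peaks genome-wide, and among the 33 below it 54.5% (36.4 to 71.9), against 52.5%. Within either range of signal, the share with a motif did not differ from the genome-wide share beyond counting error.

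In both top lists 88 of the 98 peaks were found (89.8%, exact 95% interval 82.0 to 95.0), against 83.2% of all optimal peaks. Among the 65 peaks at or above the genome-wide median signal the share was 98.5%, against 99.9% of such peaks off chromosome 1. Among the 33 below it the share was 72.7%, against 66.5%. Signals of 96 peaks with a counterpart in each relaxed list ranked alike, with a Spearman rho of 0.978 across peaks, which are not independent replicates. Replicate 1 was higher at 88 peaks and replicate 2 at 8, with a median ratio of 1.27 against 1.33 over all optimal peaks. The read depth of either replicate is unknown, and its part in this offset was not tested.

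**Figure D4:**
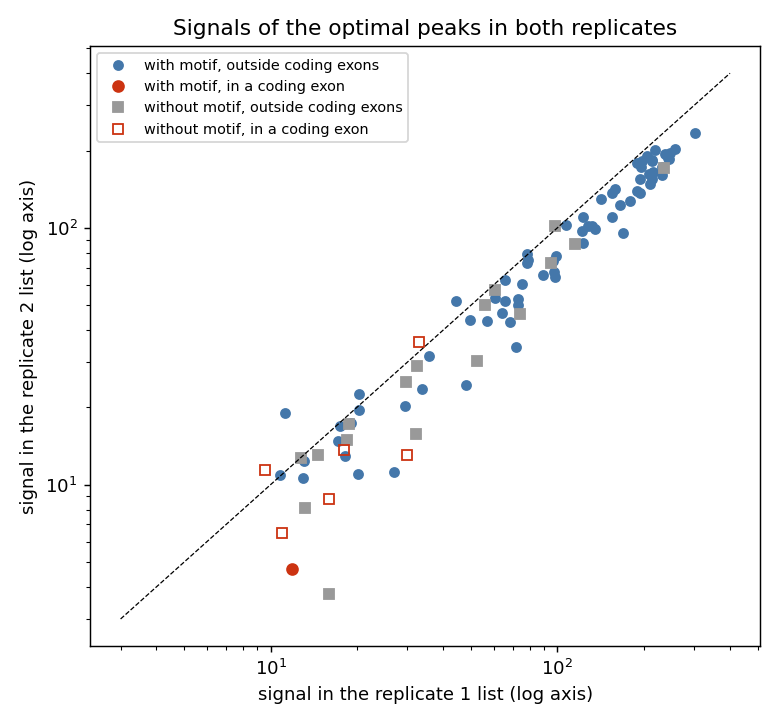
Signal of 96 optimal peaks of the region in the replicate 1 list (horizontal) and the replicate 2 list (vertical), both on log axes, with equality as a dashed line. Squares lack a motif and circles have one. Red symbols lie in coding exons, and the red squares are open. Strong peaks follow a line just under equality, and the coding-exon peaks sit at the low end.

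The plot of replicate signals shows where the scatter lies. The ratio of replicate 1 to replicate 2 ran from 0.590 to 4.26, and the peaks at both extremes were weak: the highest ratio was at a peak of 19.4 next to Chtop, in the flank before S100a1, and the lowest at the peak of 32.1 in Lce1h.

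Other genes of chromosome 3, within the complex except for Lenep, that the naming rule leaves out were counted from a list. Of these 9, 5 had a peak within 10 kb: Prr9 (306), Lelp1 (350), Kprp (129), Crct1 (19.5) and Lenep (413). Lenep lies outside the span, and its peak was not among those of the span and its flanks. Pglyrp3, Pglyrp4, Smcp and Tchhl1 had none. Of 26 cornification genes on other chromosomes, among them transglutaminases, keratins and regulators, 20 had a peak, with signals up to 465 at Ovol1, 454 at Tgm1 and 445 at Krt10. Asprv1, Casp14, Csta1, Evpl, Tgm3 and Trp63 had none. That was 76.9% of the list (exact 95% interval 56.4 to 91.0), against 69.7% of all coding genes and 48.3% of the members. For the 9 other listed genes of chromosome 3, Lenep included, the share was 55.6% (21.2 to 86.3). These differences were not tested.

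At the outer ends, the first peaks before S100a1 lay at Chtop, with signals of 54.1 and 19.4, both without a motif. The first beyond S100a10 had signals of 20.2 and 268, followed by one of 459, all with minus-strand motifs. These faced the plus-strand motif of the peak of 431 before S100a10, so that S100a10 also lay between motifs pointing towards each other. At the S100a9 side the peak of 532 and its neighbour of 289, 13031 bp from S100a9, both carried minus-strand motifs.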

How the data were processed

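CTCF ChIP-seq peaks of newborn mouse stomach were read from 5 deposited narrowPeak lists in mm10. Per the descriptions deposited with the samples, 3 were relaxed lists (replicate 1, replicate 2 and both together) of 300000 peaks each, derived from alignments and a control alignment, and 2 were the optimal and conservative lists after IDR. Which aligner, peak caller and IDR settings were used is not given in the sources used here, nor is the read depth. Signal values are as the authors deposited them and have no common scale between lists.

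The optimal list kept 74283 of 74293 peaks, those on the autosomes, X and Y. The depth behind a peak is unknown, so intervals are exact Clopper-Pearson 95% intervals of counts and cover counting error only. Transcription start sites were the starts of the protein-coding transcripts of GENCODE M21, and sequence came from RefSeq's GRCm38.p6, the same assembly. A start counted as having a peak when an optimal summit lay within 10 kb. A summit was found in both replicates when each top list, the 74283 peaks of highest signal, held a summit within 100 bp.

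The 1000 strongest peaks of chromosome 1 gave a motif matrix of 19 positions, with 989 of them entering the alignment. A peak had a motif when the best log2-odds score within 50 bp of the summit reached 10.62, which 1% of 97208 random windows met. The share of 32-base words found more than once in the genome was counted over each region, and 15.2% of 194755 words sampled on the autosomes were. Counting and scoring were tested on simulated data.

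Members and lists were chosen with earlier results of these data known. All members were counted. Those named were Lor, Ivl, the fused-type genes and, in each other subfamily, the members with the strongest peaks, nearest and farthest summits and no peak, and other genes and peaks were named beside them where a value needed it. Alternatives were other lists, windows, flanks, motif thresholds and single replicates. The software was samtools 1.23.1 and Python 3.11.15 with pysam 0.24.0, numba 0.67.0, scipy 1.17.1, matplotlib 3.10.9, pandas 2.3.3 and numpy 2.4.6.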

Additional observations from a re-analysis of the deposited data

Results flagged for a closer look

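Signal outside the optimal list was examined in the relaxed list of both replicates together. Across the span and its flanks it held 195 peaks with no optimal summit within 300 bp, and 29 of them had a CTCF motif (14.9%, exact 95% interval 10.2 to 20.7), against 3 of the windows 1 kb away. Of the 46 found in both replicate lists, 15 had a motif (32.6%, 19.5 to 48.0), against 1 of the windows 1 kb away. The strongest had a signal of 47.3, measured as 26.2 and 23.3, and lay 33266 bp from Crnn without a motif. The next had a signal of 45.2, measured as 30.6 and 11.8, and lay 1777 bp from a start of S100a16 with a motif. These counts exceed those of the neighbouring windows, in data that the counts of members do not use. The same share was not computed over the genome, so whether it is particular to this region was not tested.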

How the results depend on the processing

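No paired analysis was possible because there is 1 group. Of 89 values recomputed under alternatives for 13 results, 61 stayed within tolerance and 28 moved. Tolerance was 1.5 times for a count or density, the counting interval for a share and the spread between replicates for a median. For the median signal that spread, 8.08, came from 2 lists without a common scale. The 28 include the median signal with either replicate alone, which differs in scale from the optimal list. The window set most of the 28. The count of members with a peak was 8 at 1 kb, 17 at 5 kb and 53 at 50 kb, in place of 28. In the same order it was 1, 3 and 21 for Lce, 0, 1 and 10 for Sprr, and 0, 1 and 6 for fused-type genes. For Lor and Ivl it was 0 at 1 kb and 1 at 5 kb, and for S100a genes 7 at 1 kb. The share over all coding genes was computed at 1 kb (42.3%) and 10 kb (69.7%) only. The counts at 5 kb and 50 kb therefore cannot be read as high or low. With the peaks of higher signal alone, those above the genome-wide median, Lor and Ivl fell to 1, the flanks to 27.5 peaks per Mb from 45.0, the motif share rose to 86.2% and the median signal to 234. The median distance was 13487 bp there and 12430 bp with the conservative list or with the 5′ end of the gene model as start, in place of 11456.5 bp. The motif share was 29.6% at the score that 0.1% of random windows reach. The median signal was 151 with flanks of 100 kb and 112 with 500 kb, in place of 133. Some of these shifts have a direction that the alternative itself sets. A narrower window can only lower a count, and a wider one can only raise it. Keeping the peaks of higher signal alone can only lower counts and densities, and raise the median distance and median signal. A stricter score can only lower the motif share. The cause of the other shifts was not tested.

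With either replicate alone the median distance ran from 11451.5 to 12497 bp, the median signal, on each list's own scale, from 61.4 to 72.8, the count of members with a peak from 27 to 28, the fused-type count from 2 to 3 and the peaks per Mb in the flanks from 42.5 to 50. Without replicate 1 and without replicate 2 alike the counts were 13 S100a, 2 Sprr, 8 Lce and both Lor and Ivl. Both replicates share 1 tissue sample in the labels, which do not say whether they are separate animals, and depth is unknown.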
